A study of Mus musculus with 21 samples.

Results

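Transcripts of 10 genes that mark mesangial cells, pericytes and smooth muscle cells were followed in podocyte fractions of mouse kidney: *Pdgfrb*, *Pdgfra*, *Itga8*, *Gata3*, *Acta2*, *Myh11*, *Tagln*, *Des*, *Rgs5* and *Cspg4*. They were taken as a fixed list of symbols, each matched to its Entrez Gene number, from the 27179 genes counted in each of 21 libraries. All 10 were found, and all 10 were among the 16377 genes that passed the filter on low counts. The study asked how middle age and inhibition of the NLRP3 inflammasome, a cytosolic sensor complex that activates caspase-1, change podocytes. Each library came from the kidney cortex of an individual male wildtype C57BL/6J mouse, from which cells bound by antibodies to nephrin, a protein of the podocyte slit diaphragm, were pulled out with magnetic beads. The young group held 6 libraries of untreated mice aged 4 months. The saline group held 7 libraries of middle-aged mice (19.5 months) that had received saline by repeated intraperitoneal injection for 6 weeks from 18 months of age. The MCC950 group (labelled NLRP3i-treated) held 8 libraries of mice of the same age that had received the NLRP3 inhibitor MCC950 at 10 mg/kg in saline on the same schedule. The young mice had no injections, and by the methods control mice of that age came from archived tissue, so age, injection and tissue source cannot be told apart in the comparison of saline with young.

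Mesangial cells sit between the capillary loops of the glomerulus, hold them together with their matrix and contract. They depend on platelet-derived growth factor (PDGF) signaling: PDGF-B from endothelial cells binds the receptor PDGFR-β on mesangial cells and pericytes, and without it the mesangium does not form. Smooth muscle cells of the arterioles are their neighbours at the vascular pole and carry a fuller set of contractile proteins, which serum response factor and myocardin switch on by way of a DNA element called the CArG box. A podocyte fraction is meant to hold neither cell type. Reads of these genes can stem from cells carried along with the podocytes or from podocytes, and in bulk libraries these sources cannot be told apart.

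Total counts ranged from 27375870 to 36827823 in young, from 45772937 to 84876399 in saline and from 35440472 to 58247271 in MCC950 libraries, and mitochondrial genes took 69.3 ± 9.82% (SD, n = 6), 69.6 ± 5.32% (n = 7) and 56.4 ± 4.46% (n = 8) of them. The 10 genes had between 33 counts (*Rgs5*, MCC950 replicate 8) and 1873 counts (*Itga8*, young replicate 4) per library. Levels below are counts per 1000000 counts (CPM) after scaling by TMM, a factor per library that evens out differences in composition. The labelled cell type was present, since none of 9 podocyte markers was at 0 in a group, but their summed level was 653 to 1498 CPM in young, 270 to 492.96 in saline and 341 to 577 in MCC950 libraries. Summed markers of other cells were also above 0 in every library. For endothelium (7 genes) they were 409 to 727, 221 to 340 and 184 to 377 CPM in the same order, for collecting duct (4 genes) 370 to 899, 265 to 470 and 167 to 481, for proximal tubule (6 genes) 1041 to 2878, 852 to 2061 and 1358 to 3219, and for the loop of Henle and distal tubule (4 genes) 2321 to 3443, 2692 to 4022 and 1911 to 3496. For macrophages (6 genes) they were 327 to 1566, 1206 to 2965 and 706 to 2859 CPM, for B and plasma cells (4 genes) 30.0 to 101.04, 372 to 501 and 88.1 to 567.9, and for T cells (3 genes) 0.337 to 1.17, 0.928 to 3.13 and 0.233 to 1.496.

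Since the contractile genes are the classic targets of the CArG box, the 250 bases before a start site were searched for it. RefSeq promoters (GRCm38.p6) were at hand for 7 of the 10 members. Those of *Pdgfrb*, *Myh11* and *Tagln* were missing, so of the contractile genes *Acta2*, *Myh11* and *Tagln* only *Acta2* was searched. A match was CC, then 6 bases of A or T, then GG, with at most 1 mismatch, which reads the same on both strands. *Acta2*, the gene of smooth muscle α-actin, held a match at −84 to −75 and another at −34 to −25, and *Cspg4* held 2 overlapping matches that span −238 to −228. The 30 bases around each are shown 5′ to 3′ with the match in capitals, at chr19:34255438-34255467 and chr19:34255388-34255417 (− strand) and at chr9:56864856-56864885 (+ strand).
Acta2 (−84): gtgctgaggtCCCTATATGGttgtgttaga
Acta2 (−34): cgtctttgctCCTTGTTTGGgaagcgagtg
Cspg4: tgtcccaaacCCTTAAAATGGggcatgggt
No match was found in the windows of *Pdgfra*, *Itga8*, *Gata3*, *Des* and *Rgs5*. Of all 32851 promoters, 18.6% held a match with at most 1 mismatch and 1.47% an exact match, beside 2 of the 7 members, and nothing particular to the members is read from this. The windows of *Rgs5* (chr1:169655251-169655500, +), whose level varied with *Myh11* and *Acta2* over all libraries once group means were subtracted (r = 0.93 and 0.79), and *Itga8* (chr2:12301945-12302194, −), for which r was 0.08 and 0.07, are shown whole as examples without a match.
Rgs5: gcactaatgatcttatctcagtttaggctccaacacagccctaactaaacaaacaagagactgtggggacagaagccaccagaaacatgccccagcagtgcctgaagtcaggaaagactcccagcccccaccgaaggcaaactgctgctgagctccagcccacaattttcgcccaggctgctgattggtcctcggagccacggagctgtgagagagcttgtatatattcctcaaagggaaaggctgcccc
Itga8: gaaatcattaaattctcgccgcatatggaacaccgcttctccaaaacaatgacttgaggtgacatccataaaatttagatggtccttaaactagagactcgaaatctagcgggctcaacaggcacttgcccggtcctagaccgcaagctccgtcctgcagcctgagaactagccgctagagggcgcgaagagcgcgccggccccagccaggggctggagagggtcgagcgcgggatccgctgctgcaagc
A match is a description of the letters in a window and not a binding site. GENCODE places 217 of the 250 bases of the *Acta2* window and 71 of those of the *Cspg4* window inside exons of the same gene. The windows of *Gata3* (chr2:9878601-9878850, −) and *Pdgfra* (chr5:75152001-75152250, +) lie within the spans of these genes given below, outside their GENCODE exons. That of *Itga8* overlaps the 5′ end of its gene's span. These windows are therefore not wholly upstream of their genes.

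On the GRCm38 (mm10) assembly, the genes of the mesangial members lie at chr18:61045127-61085067 (*Pdgfrb*, + strand), chr5:75151322-75198206 (*Pdgfra*, +), chr2:12106632-12301985 (*Itga8*, −), chr2:9857078-9887953 (*Gata3*, −) and chr1:75360292-75368579 (*Des*, +). The contractile and pericyte members lie at chr19:34240336-34255585 (*Acta2*, −), chr16:14194527-14292188 (*Myh11*, −), chr9:45929628-45936058 (*Tagln*, −), chr1:169655501-169695813 (*Rgs5*, +) and chr9:56865104-56899870 (*Cspg4*, +). *Tagln* shares 1241 of its 1988 exon bases (62.4%) with the antisense gene *Gm48529*, and whether strand was used in counting is not given in the sources used here, so reads from both cannot be told apart. For the other members the largest overlap was 5.86% of exon bases, between *Des* and antisense *Gm15179*. *Acta2* is close in sequence to other actin genes, and its counts are uncertain to that extent. Of these, the smooth muscle γ-actin gene *Actg2* was at 0.0264 ± 0.0410 CPM in young, 0.00965 ± 0.0168 in saline and 0.0121 ± 0.0174 in MCC950 libraries.

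Per kilobase of exon, which allows genes to be compared, *Acta2* had the highest level of the 10 in young (14.2 ± 2.79 CPM per kb, SD, n = 6) and saline libraries (6.54 ± 1.05, n = 7). In MCC950 libraries *Gata3* (4.82 ± 1.14, n = 8) and *Acta2* (4.70 ± 2.23) led and did not differ beyond their spread. *Pdgfra* was the lowest in every group, at 0.647 ± 0.211, 0.332 ± 0.0948 and 0.398 ± 0.216 CPM per kb in young, saline and MCC950 libraries. In young libraries the order below *Acta2* was *Gata3* (8.39), *Tagln* (8.21), *Itga8* (6.13), *Pdgfrb* (5.69), *Myh11* (3.52), *Des* (3.17), *Rgs5* (1.49) and *Cspg4* (1.39). Neighbours in that order differed by less than 1 SD for *Gata3* and *Tagln*, *Itga8* and *Pdgfrb*, *Myh11* and *Des*, and *Rgs5* and *Cspg4*.

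**Figure D1:**
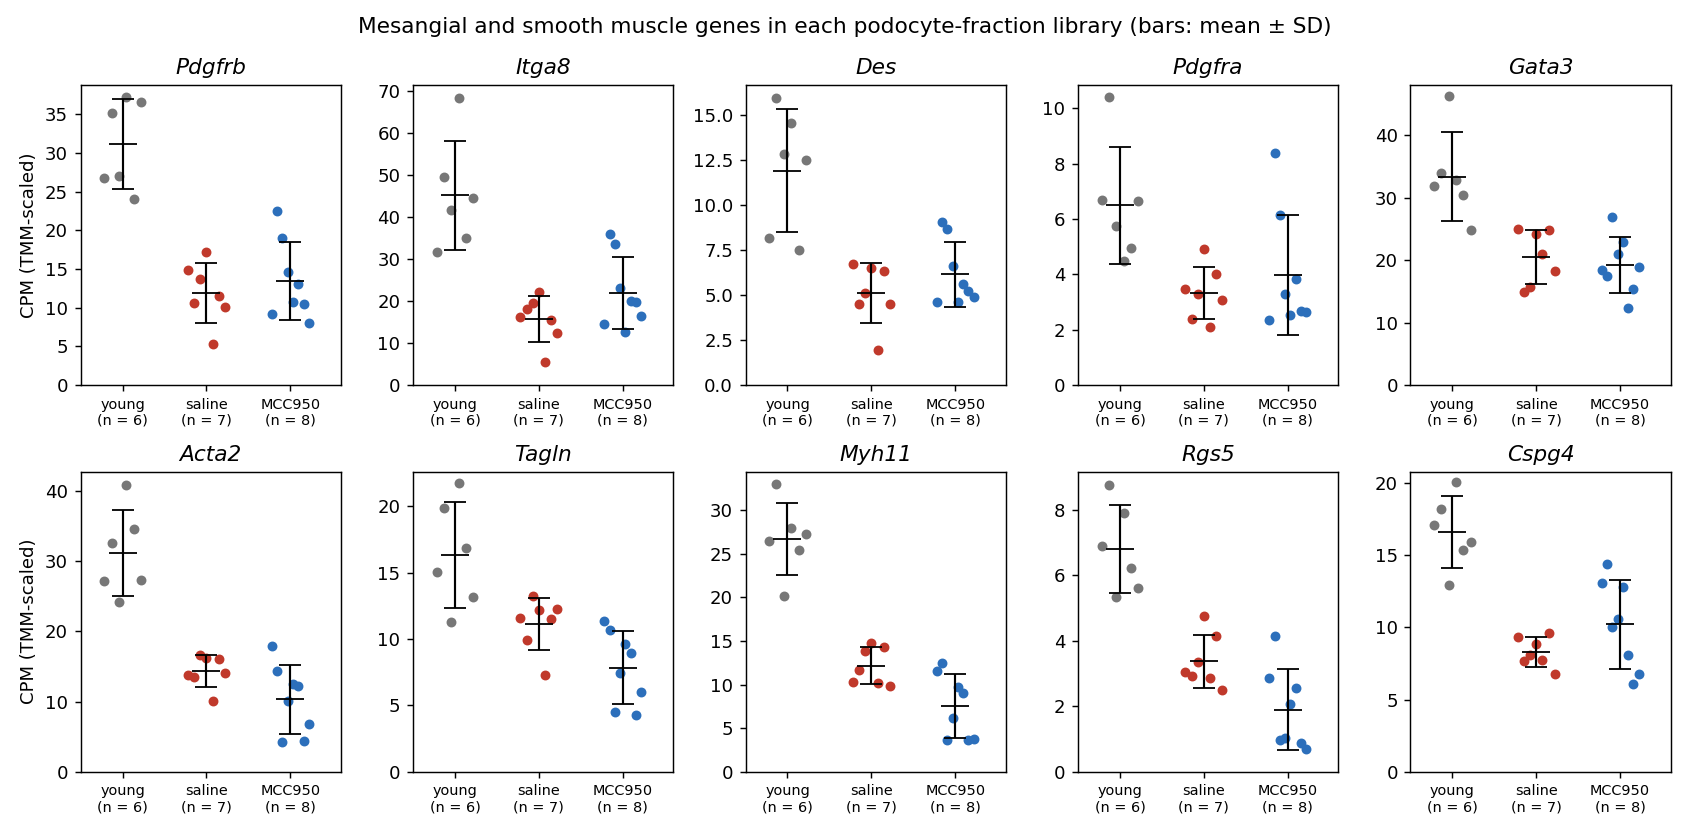
Each panel plots the CPM (TMM-scaled, linear axis from 0) of 1 gene in every library of the young (n = 6), saline (n = 7) and MCC950 (n = 8) groups, with the mean and SD as bars. The young libraries lie highest on average for every gene, and some MCC950 libraries lie below every saline library for *Myh11* (6 of 8), *Rgs5* (5), *Acta2* (3), *Tagln* (3), *Cspg4* (2) and *Gata3* (1).

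Of the 10 mesangial and smooth muscle genes, 9 were lower in middle-aged saline than in young podocyte fractions, and none was higher. In edgeR's quasi-likelihood test over all genes (adjusted p under 0.05), 12.4% of the 16377 genes tested were lower. The median log2 fold change was -1.06 over the members and 0.02 over all genes tested. For 7 members (*Pdgfrb*, *Itga8*, *Acta2*, *Myh11*, *Des*, *Rgs5* and *Cspg4*) every saline library lay below every young library, as did 4.86% of all genes. In libraries of bulk RNA, fewer cells of a type and less RNA per cell cannot be told apart. Podocyte and endothelial markers were lower in the same comparison, with 8 of 9 and 6 of 7 genes passing the test and median log2 fold changes of -2.12 and -1.05, and their part in the members' falls was not tested. Of 4 collecting duct markers 2 were lower, with a median of -0.58. *Gata3* varied with their sum once group means were subtracted (r = 0.76), and which cells its reads came from was not tested.

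*Itga8*, which codes for the α8 integrin chain by which mesangial cells hold on to their matrix, had the lowest log2 fold change of the 10 genes, with a 95% interval that overlapped those of the other 9. Its level ranged from 31.8 to 68.3 CPM in young libraries (median 43.2) and from 5.43 to 22.2 in saline libraries (median 16.3). The lowest saline library, replicate 5, stood well below the next, at 12.4 CPM, and the groups did not overlap. The log2 fold change was -1.53 (standard error 0.28, adjusted p = 0.000487), a 2.89-fold drop.

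The PDGF receptors fell as well. *Pdgfrb*, the receptor for PDGF-B, was between 24.1 and 37.2 CPM in young (median 31.1) and between 5.37 and 17.2 CPM in saline libraries (median 11.5), without overlap (log2 fold change -1.39, standard error 0.24, adjusted p = 0.000323). *Pdgfra*, the receptor that marks fibroblasts and part of the mesangium, was much lower, between 4.48 and 10.4 CPM in young (median 6.197) and between 2.11 and 4.91 in saline libraries (median 3.30). Only saline replicate 4 rose above the lowest young library. The log2 fold change was -0.97 (standard error 0.29, adjusted p = 0.0175). Without young replicate 2, the highest library, it was -0.79 and just missed the threshold (adjusted p = 0.0541).

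*Des*, the gene of the muscle intermediate filament desmin, which mesangial cells carry and podocytes can make, was between 7.47 and 15.9 CPM in young (median 12.6) and between 1.96 and 6.73 in saline libraries (median 5.12). No saline library reached the young range (log2 fold change -1.23, standard error 0.24, adjusted p = 0.00105). *Gata3*, a transcription factor of mesangial cells that the collecting duct uses too, fell least among the genes called, from 24.9 to 46.4 CPM in young (median 32.3) to 15.0 to 25.1 in saline libraries (median 20.98). Its groups touched, with saline replicate 1 just above the lowest young library (log2 fold change -0.70, standard error 0.17, adjusted p = 0.00445).

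Of the 3 contractile genes 2 passed the test. *Acta2* was between 24.2 and 40.9 CPM in young (median 29.9) and between 10.1 and 16.7 in saline libraries (median 14.0), and the log2 fold change was -1.12 (standard error 0.26, adjusted p = 0.00365). *Myh11*, the smooth muscle myosin heavy chain and the most specific of the contractile members, was between 20.2 and 32.9 CPM in young (median 26.8) and between 9.87 and 14.7 in saline libraries (median 11.7), and the log2 fold change was -1.14 (standard error 0.26, adjusted p = 0.003). Both genes separated the groups fully. *Tagln*, the actin-binding protein SM22, was between 11.3 and 21.7 CPM in young (median 15.9) and between 7.28 and 13.2 in saline libraries (median 11.5), and the groups overlapped. Its log2 fold change was -0.55 (standard error 0.21, 95% interval -0.998 to -0.11) and did not pass the test (adjusted p = 0.0626). Under 6 of 9 other settings, named in the closing section, it did pass, with adjusted p from 0.0211 to 0.0487, as it did without any of young replicates 3 and 6, saline replicate 3 and MCC950 replicates 3 and 7 (0.0365 to 0.0474).

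Both pericyte members fell. *Rgs5*, a brake on G protein signaling and a pericyte marker, was between 5.33 and 8.75 CPM in young (median 6.56) and between 2.50 and 4.76 in saline libraries (median 3.04), and the log2 fold change was -1.01 (standard error 0.32, adjusted p = 0.0234). *Cspg4*, the proteoglycan NG2 of the pericyte surface, was between 12.9 and 20.1 CPM in young (median 16.5) and between 6.76 and 9.62 in saline libraries (median 8.11). The groups of both genes were separate, and the log2 fold change of *Cspg4* was -1.002 (standard error 0.17, adjusted p = 0.000272).

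**Figure D2:**
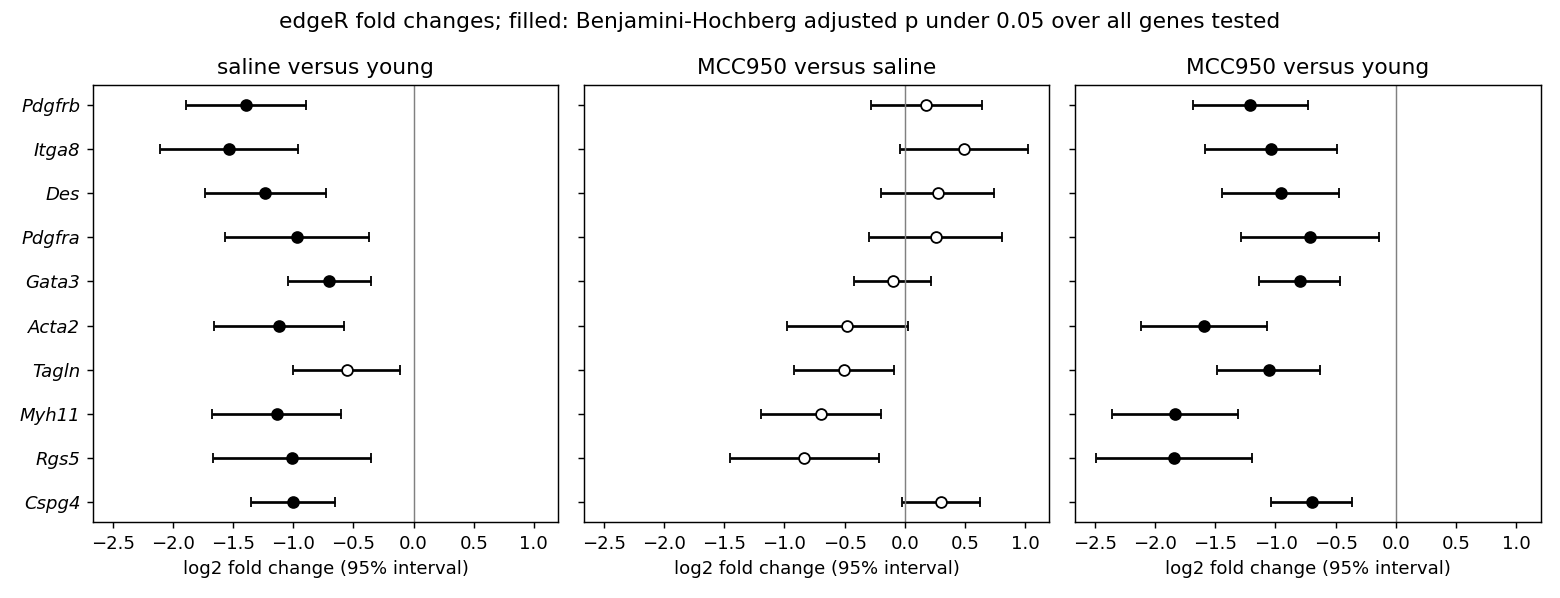
The log2 fold change of each gene is drawn with its 95% interval from edgeR for saline against young, MCC950 against saline and MCC950 against young, and filled points have an adjusted p under 0.05 after adjustment over the whole table. In the first panel 9 of 10 points are filled and lie below 0, in the second none is filled and the points lie on both sides of 0, and in the third all 10 are filled and below 0. The panels share libraries.

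Other genes of these cell types, on lists drawn up with earlier results of these data known, were read in the same way. Of the 44 distinct related genes tested, 28 were lower and 3 higher in saline than in young libraries. Among all genes tested, 12.4% were lower and 12.2% higher. Of 10 other mesangial genes, 9 were tested and 9 fell with a median log2 fold change of -1.03, among them the transcription factor *Foxd1* of the stromal lineage (-2.68, standard error 0.40), the secreted growth factor *Ptn* (-1.81, standard error 0.27) and the angiotensin receptor *Agtr1a* (-0.96, standard error 0.15). The most abundant of them was *Sfrp2*, a secreted modulator of Wnt signaling, at 28.3 ± 8.51 CPM in young libraries (SD, n = 6; log2 fold change -1.78, standard error 0.31). *Tbx18*, at 0.0204 CPM in young libraries, was not tested. The value of *Foxd1* lay nearer to the median of the podocyte markers (-2.12) than to the median of this list. Which cells its reads came from was not tested. Of 12 other contractile genes 11 were tested and 8 fell, including *Cald1* (-1.34, standard error 0.18), the myosin light chain kinase *Mylk* (-1.30, standard error 0.15) and the myosin light chain *Myl9* (-1.09, standard error 0.16), with a median of -0.94. The other 3 (*Cnn1*, *Synpo2* and *Ppp1r14a*) did not pass the test.

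Among 4 regulators of the contractile genes, the coactivator *Myocd* fell from 0.452 ± 0.200 to 0.0810 ± 0.0614 CPM (log2 fold change -2.42, standard error 0.50, adjusted p = 0.0015), and its DNA-binding partner *Srf* fell by 0.28 on the log2 scale (adjusted p = 0.0422). *Mrtfa* (0.33, adjusted p = 0.073) and *Mrtfb* (-0.12, adjusted p = 0.388) did not pass. Of 6 other pericyte genes 3 fell: *Notch3* (-1.36, standard error 0.21), its target *Heyl* (-0.89, standard error 0.20) and the adhesion molecule *Mcam* (-0.83, standard error 0.16). *Ebf1* (-0.52, adjusted p = 0.0694), *Abcc9* (0.23, adjusted p = 0.57) and *Kcnj8* (0.75, adjusted p = 0.145) did not pass. Of the 4 ligands of the PDGF receptors, *Pdgfd* fell (-1.05, standard error 0.16, adjusted p = 0.000107), while *Pdgfb*, the most abundant at 60.2 ± 18.0 CPM in young libraries, had a log2 fold change of 0.21 (adjusted p = 0.49).

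All 4 tested receptors for vasoactive peptides fell, with the endothelin receptors *Ednra* at -0.93 (standard error 0.26) and *Ednrb* at -0.68 (standard error 0.19) beside *Avpr1a* at -1.03 (standard error 0.34) and *Agtr1a*, which is on the mesangial list too. Of 2 genes of renin cells, *Akr1b7* fell (-1.02, standard error 0.36, adjusted p = 0.0432), and *Ren1*, at 13.1 ± 2.26 CPM in young and 8.46 ± 1.65 in saline libraries, did not pass (adjusted p = 0.266). Matrix genes of fibroblasts did not follow. Of 5 such genes 3 rose, namely *Lum* (3.56, standard error 0.84), *Col1a1* (1.94, standard error 0.62) and *Dcn* (1.60, standard error 0.48), where 12.2% of all genes rose, and *Col1a2* fell (-1.03, standard error 0.26). The levels of the 3 that rose were low, with saline means of 0.601 CPM for *Lum*, 1.45 for *Col1a1* and 3.94 for *Dcn*.

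With MCC950, none of the 10 genes passed edgeR's test against saline in either direction, where 4.86% of all genes were lower and 11.9% higher. At an unadjusted p under 0.05, 3 members were lower and none higher (11.4% of all genes were lower at that limit), and these were *Rgs5*, *Myh11* and *Tagln*. DESeq2 and limma's voom with quality weights each called these 3 lower at an adjusted p under 0.05, where DESeq2 called 5.59% and voom 11.8% of all genes lower. The log2 fold change was above 0 for 5 members and below 0 for 5, with a median of 0.04, against 0.00 over all genes.

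*Myh11* was between 3.60 and 12.5 CPM after MCC950 (median 7.61), against 9.87 to 14.7 after saline, and 6 of 8 libraries lay under the saline range. Its log2 fold change was -0.70 (standard error 0.24, 95% interval -1.20 to -0.20, adjusted p = 0.0501). *Rgs5* was between 0.706 and 4.15 CPM after MCC950 (median 1.54), against 2.50 to 4.76 after saline, with 5 of 8 libraries below the lowest saline library (log2 fold change -0.83, standard error 0.30, 95% interval -1.45 to -0.21, adjusted p = 0.0579). Without MCC950 replicate 2, the highest for both genes, the values were -0.84 for *Myh11* (adjusted p = 0.0201) and -1.09 for *Rgs5* (adjusted p = 0.0113). *Myh11* also passed without any of 9 other libraries, with adjusted p up to 0.0436, and *Rgs5* without any of 6 others, with adjusted p up to 0.0499, all of them named in the closing section.

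*Tagln* was between 4.26 and 11.4 CPM (median 8.17), with 3 of 8 libraries under the saline range, and the log2 fold change was -0.50 (standard error 0.20, 95% interval -0.92 to -0.09, adjusted p = 0.085). It passed without saline replicate 5, its lowest saline library, at -0.59 (adjusted p = 0.0494). *Acta2* was between 4.18 and 18.0 CPM (median 11.2) and likewise had 3 of 8 libraries under the saline range. Its highest MCC950 library lay above every saline library, and the log2 fold change was -0.48 (standard error 0.24, 95% interval -0.98 to 0.03, adjusted p = 0.183). The 3 low libraries were MCC950 replicates 3, 7 and 8 for both genes and were also the lowest for *Myh11*. The spread of these genes was wider after MCC950, with coefficients of variation of 47.4% for *Acta2*, 49.0% for *Myh11*, 34.8% for *Tagln* and 64.4% for *Rgs5*, against 16.01%, 17.4%, 17.8% and 23.8% after saline, a difference that was not tested.

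*Cspg4* was between 6.05 and 14.4 CPM after MCC950 (median 10.3), and its log2 fold change was 0.30 (standard error 0.16, 95% interval -0.03 to 0.63, adjusted p = 0.196). *Itga8*, *Des*, *Pdgfra* and *Pdgfrb* also had values above 0, and *Gata3* below 0, none of them called. *Itga8* was between 12.7 and 35.9 CPM (median 19.9), with 3 of 8 MCC950 libraries above the highest saline library, 22.2 CPM, and the log2 fold change was 0.49 (standard error 0.26, 95% interval -0.04 to 1.03, adjusted p = 0.195). *Des* was between 4.59 and 9.05 CPM (median 5.40; log2 fold change 0.27, 95% interval -0.20 to 0.75, adjusted p = 0.435).

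*Pdgfra* was between 2.36 and 8.39 CPM after MCC950 (median 2.99; log2 fold change 0.26, 95% interval -0.30 to 0.81, adjusted p = 0.542), and *Pdgfrb* between 8.07 and 22.6 CPM (median 11.95; log2 fold change 0.18, 95% interval -0.28 to 0.64, adjusted p = 0.616). *Gata3* was between 12.4 and 27.0 CPM (median 18.6; log2 fold change -0.10, 95% interval -0.42 to 0.22, adjusted p = 0.698). These intervals span 0, and up to their limits they exclude neither a rise nor a fall. The MCC950 libraries also had a smaller mitochondrial share (two-sided exact permutation over libraries, p = 0.000622), 5 of 6 proximal tubule markers higher and 4 of 9 podocyte markers higher. With the mitochondrial genes left out of the counts, again none of the 10 genes passed. TMM scaling already allows for such a share, so this setting could change little. The log2 fold change of *Pdgfrb* was 0.18 with and without these genes. The part of the mitochondrial share and of the tubule and podocyte markers was not tested.

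Of the 44 distinct related genes that were tested, 2 rose and 4 fell with MCC950, where 11.9% of all genes rose and 4.86% fell. Of 9 tested mesangial genes, *Agtr1a* rose (log2 fold change 0.57, standard error 0.14, adjusted p = 0.0129), and 8 of 9 had values above 0, with a median of 0.54 (over all genes 0.00). Of 11 contractile genes none passed in either direction at the adjusted threshold in edgeR, and their median was -0.10. Of 6 pericyte genes, *Abcc9*, a subunit of potassium channels, rose from 1.37 ± 0.208 to 2.40 ± 1.09 CPM (log2 fold change 0.80, standard error 0.23, adjusted p = 0.0238), and *Heyl* fell (-0.64, standard error 0.18, adjusted p = 0.0225). Both endothelin receptors fell, *Ednra* from 1.14 ± 0.333 to 0.609 ± 0.201 CPM (-0.90, standard error 0.24, adjusted p = 0.0174) and *Ednrb* from 10.9 ± 1.90 to 7.03 ± 2.21 CPM (-0.64, standard error 0.18, adjusted p = 0.0202). *Mrtfb* fell by 0.33 on the log2 scale (adjusted p = 0.0157). None of the 4 PDGF ligands, 2 renin cell genes and 5 fibroblast matrix genes passed.

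**Figure D3:**
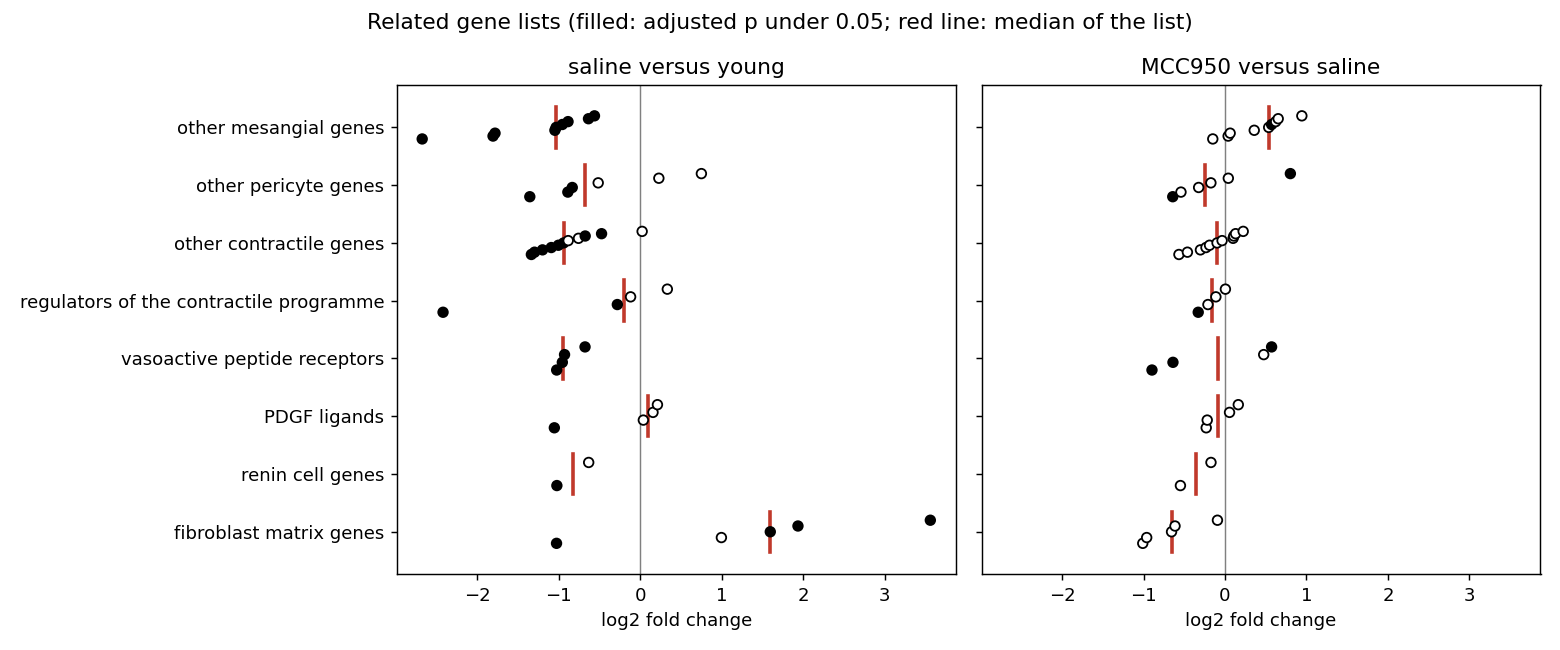
Each point is the log2 fold change of 1 gene of a list of related genes that passed the filter, for saline against young (left) and MCC950 against saline (right), filled where the adjusted p was under 0.05, and red lines mark the median of each list. In the first panel 9 of 9 mesangial and 10 of 11 contractile genes lie to the left of 0 (medians -1.03 and -0.94), and in the second their medians are 0.54 and -0.10.

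Set against young libraries, which the first comparison also used, the MCC950 libraries were lower in 10 of 10 genes (16.5% of all genes were lower), with a median log2 fold change of -1.05. *Rgs5* (-1.84, standard error 0.31), *Myh11* (-1.83, standard error 0.25) and *Acta2* (-1.59, standard error 0.25) had the largest drops, 3.59-fold, 3.57-fold and 3.02-fold, and with *Pdgfrb* (-1.21, standard error 0.23) they were the 4 genes without overlap between the groups (4.66% of all genes). For *Tagln* the value was -1.06 (adjusted p = 0.000562), for *Itga8* -1.04 (adjusted p = 0.00432), for *Des* -0.96 (adjusted p = 0.00326), for *Gata3* -0.80 (adjusted p = 0.000733) and for *Cspg4* -0.70 (adjusted p = 0.0023). *Pdgfra* was closest to the threshold (-0.71, standard error 0.28, adjusted p = 0.047) and lost its call without any of young replicates 1, 2, 3 and 6 or MCC950 replicates 1, 4, 5, 6, 7 and 8, with adjusted p from 0.0513 to 0.130. Of the related genes, 8 of 9 mesangial, 10 of 11 contractile and 4 of 6 pericyte genes were lower than in young libraries. Of all 44 distinct related genes tested, 30 were lower and 2 higher, where 21.8% of all genes were higher. Those higher were the pericyte gene *Abcc9* (1.03, standard error 0.26, adjusted p = 0.00364) and the matrix gene *Lum* (2.91, standard error 0.85, adjusted p = 0.0109).

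Among libraries of the same group the members did not vary as a single block. Correlations of log2 CPM after subtracting group means, over 21 libraries that differ in depth and purity, are given as a description. *Pdgfrb*, *Itga8*, *Des* and *Pdgfra* varied together, with r from 0.64 to 0.90 over their 6 pairs (median 0.84). *Acta2*, *Tagln*, *Myh11*, *Rgs5* and *Cspg4* formed the other set, with r from 0.67 to 0.95 over 10 pairs (median 0.78). Between the sets, which were drawn after these values were seen, r was from 0.02 to 0.44 over 20 pairs (median 0.22). *Gata3* joined neither, with r of 0.03 to 0.26 with the first set and -0.20 to 0.29 with the second.

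Within each group the values rest on few libraries. Within the 8 MCC950 libraries the 20 pairs between the sets had a median r of 0.06 (-0.30 to 0.45), while pairs within the first and the second set had medians of 0.94 and 0.84. Within the 7 saline libraries the pairs between the sets had a median of 0.65 (0.35 to 0.89), against 0.86 (0.70 to 0.94) in the first and 0.57 (0.19 to 0.92) in the second set, so the sets did not stand apart there. Within the 6 young libraries the medians were 0.37 between the sets (-0.31 to 0.62), 0.58 in the first (-0.12 to 0.82) and 0.83 in the second (0.56 to 0.92). Saline replicate 5 was the lowest library of its group for *Itga8*, *Pdgfrb*, *Des*, *Acta2* and *Tagln*. With it, *Itga8* and *Acta2* had r = 0.89 in saline libraries, and without it r = 0.50. In MCC950 libraries r was -0.30 for this pair and ranged from -0.65 (without replicate 2) to 0.02 (without replicate 3). In young libraries it was 0.60, and 0.02 without replicate 4. Whether these correlations differ between groups was not tested.

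**Figure D4:**
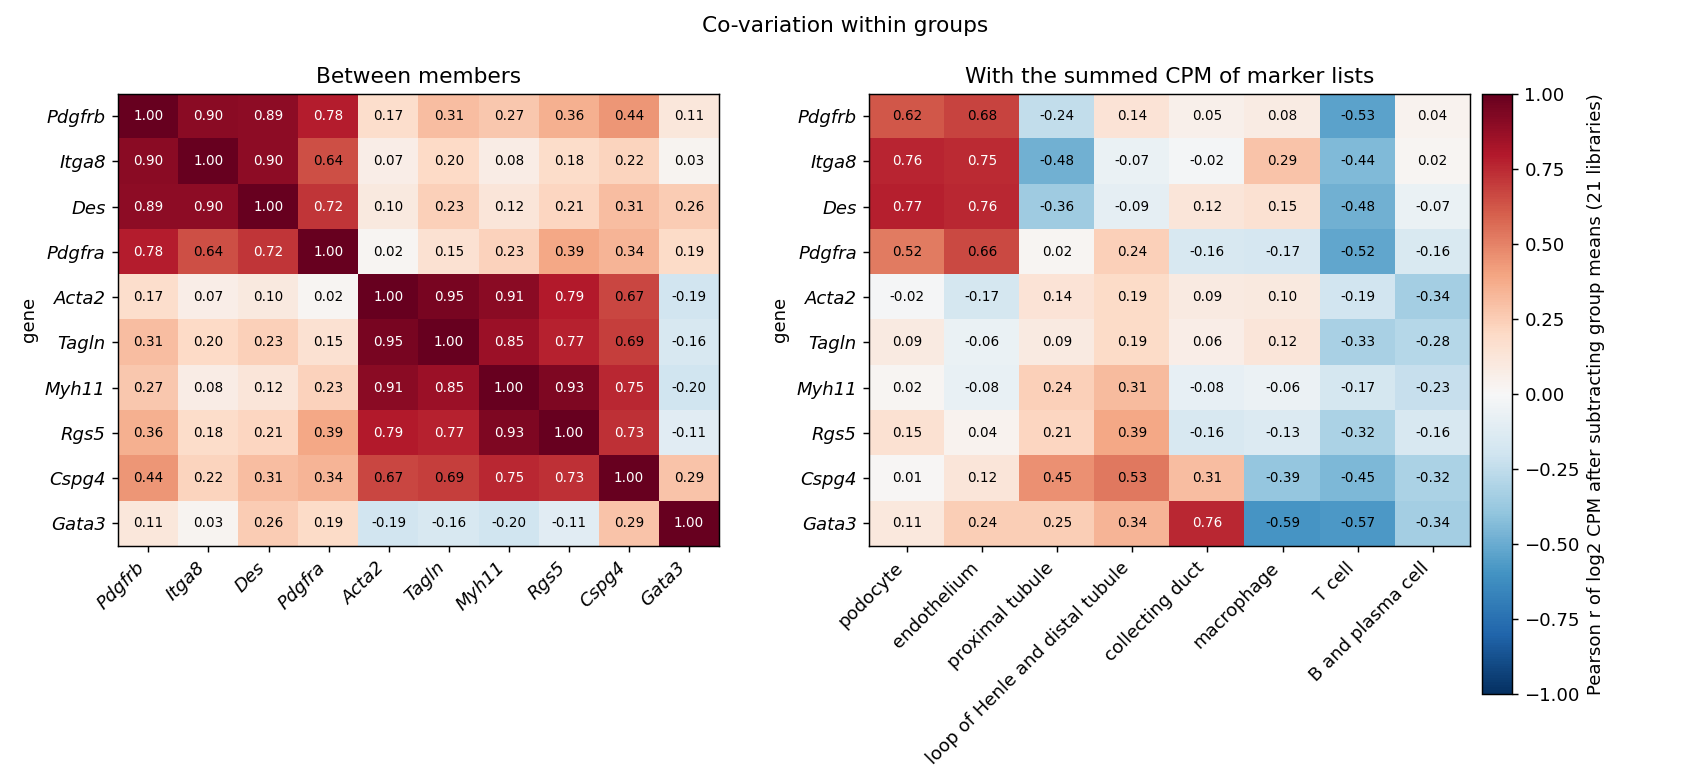
The left panel gives Pearson's r between the log2 CPM of each pair of genes after subtracting group means (21 libraries), and the right panel the r of each gene with the summed CPM of 8 lists of cell type markers. A block of *Pdgfrb*, *Itga8*, *Des* and *Pdgfra* (0.64 to 0.90) and a block of *Acta2*, *Tagln*, *Myh11*, *Rgs5* and *Cspg4* (0.67 to 0.95) stand apart, and *Gata3* has its highest value with collecting duct markers (0.76).

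The sets also differed in the other cells they went with. *Itga8*, *Des*, *Pdgfrb* and *Pdgfra* had r of 0.76, 0.77, 0.62 and 0.52 with the sum of podocyte markers and of 0.75, 0.76, 0.68 and 0.66 with that of endothelial markers. *Acta2* had r of -0.02 and -0.17, and *Myh11* 0.02 and -0.08 with the same sums. *Cspg4* had r of 0.01 and 0.12 with them. Its r was 0.53 with the sum of loop of Henle and distal tubule markers and 0.45 with that of proximal tubule markers. *Gata3* had r = 0.76 with the sum of collecting duct markers, against 0.11 with podocyte markers and 0.03 with *Itga8*, so in these libraries its level did not move with the other mesangial genes.

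Of 12263 genes with an average of at least 1 log2 CPM, the 3 most like each member are named. *Adamts5*, a matrix protease, was nearest to *Des* (r = 0.94), *Pdgfrb* (0.93) and *Itga8* (0.93), and it was followed by *Mrc2* and *Gdf10* for *Des*, by *Ano1* and *Gdf10* for *Pdgfrb* and by *Ptn* and *S1pr3* for *Itga8* (each 0.91 to 0.94). For *Pdgfra* the nearest was *Gucy1a1*, a subunit of the nitric oxide receptor (0.87), then *Mcc* (0.83) and *Cd300lg* (0.80). *Acta2* and *Tagln* were nearest to each other (0.95), with *Myh11* (0.91) and *Sparcl1* (0.87) next for *Acta2* and *Tpm2* (0.86) and *Myh11* (0.85) for *Tagln*. *Myh11* was nearest to *Rgs5* (0.93), *Aoc3* (0.92) and *Sparcl1* (0.92). The nearest to *Rgs5* was a gene that RefSeq did not name (0.96), then *Myh11* (0.93) and *Aoc3* (0.90). *Cspg4* had *Itgb4* (0.84), *Asah2* (0.83) and *Tnks1bp1* (0.83), and *Gata3* had *Foxi1* (0.92), a factor of intercalated cells of the collecting duct, with *Hoxd9* and *Llgl2* (both 0.91).

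The ratio of *Itga8* to *Acta2* counts, which does not depend on library size, shows the spread in single libraries. It was between 1.01 and 1.72 in young (median 1.58), between 0.539 and 1.37 in saline (median 1.18) and between 0.806 and 8.06 in MCC950 libraries (median 2.33). In 6 of 8 MCC950 libraries it was above the highest saline value, with MCC950 replicate 3 at 8.06 and replicate 7 at 4.47, while replicates 1 and 5 lay inside the saline range. The ratio of *Pdgfrb* to *Myh11* counts had the same extremes, from 0.525 to 1.44 in saline (median 0.990) and from 0.802 in replicate 1 to 5.26 in replicate 3 after MCC950 (median 1.99). MCC950 replicate 3 combined 33.7 CPM of *Itga8*, the second highest of its group, with 4.18 CPM of *Acta2*, the lowest. These genes were chosen for the ratio after their values were seen, and it was not tested.

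**Figure D5:**
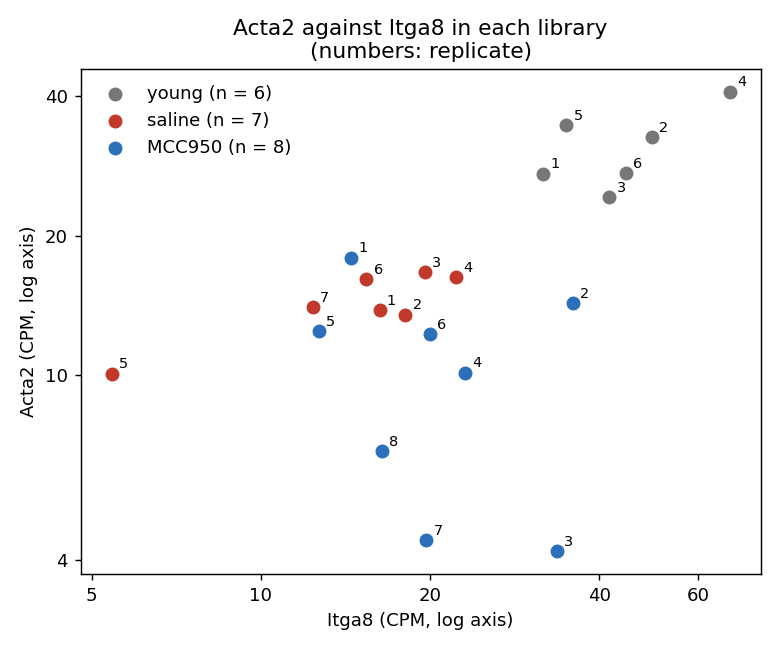
*Acta2* is plotted against *Itga8* for each library (CPM, both axes logarithmic), coloured by group and numbered by replicate. Young libraries lie to the upper right, saline libraries from replicate 5 (5.43 and 10.1 CPM) upward, and MCC950 libraries spread from high *Acta2* with low *Itga8* (replicate 1, 18.0 and 14.5 CPM) to low *Acta2* with high *Itga8* (replicate 3, 4.18 and 33.7 CPM).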

How the data were processed

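Podocyte fractions of 6 young, 7 saline and 8 MCC950 mice were sequenced, and groups and replicate numbers were taken from the labels. The authors trimmed reads with Trim Galore, aligned them to mm10 with Bowtie2, which does not align across splice junctions, and counted them per gene with featureCounts. Annotation release and strand setting are not given in the sources used here. The deposited counts per gene are whole numbers and were used without change. A further deposited table of counts divided by DESeq2 size factors was not used.

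Gene numbers were named from RefSeq (GRCm38.p6), which named 25275 of 27179. No 2 libraries of a group agreed within counting noise. Differences were tested in R 4.3.3 by edgeR 4.0.16 (TMM scaling, filterByExpr, quasi-likelihood test, all 3 groups in 1 fit, Benjamini-Hochberg adjustment over 16377 genes). Standard errors were derived from the log2 fold change and the root of its F statistic. Levels per kilobase used exon lengths from GENCODE vM21, and log2 CPM a prior count of 2. DESeq2 1.42.0 and voom in limma 3.58.1 were among the alternatives. Exact permutation tests used scipy 1.17.1. The p-values of edgeR set the difference between groups against the spread between libraries. In simulated counts of saline against young libraries with 200 of 16377 genes changed, edgeR called 73 of 100 changed 2-fold and 92 of 100 changed 4-fold, with 8 unchanged genes.

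The members, lists and tests were chosen with earlier results of these data known. All members are named, list genes where they passed the test or were the most abundant, a few others by their values, and as most alike the 3 genes with the highest group-centred correlation.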

Additional observations from a re-analysis of the deposited data

Results flagged for a closer look

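*Pdgfra* in young replicate 2 was at 10.4 CPM, far from the other young libraries, of which the highest was at 6.70 CPM, and the gap was 0.627 of the group's whole range. It was the only flagged value among 30 groups of libraries (10 genes in 3 groups), where chance gives about 1 in 20, or 1.5 flags. The same library was also the highest of its group for *Des* (15.9 CPM), *Myh11* (32.9 CPM) and *Rgs5* (8.75 CPM), within the limit for each. Without it the fall of *Pdgfra* from young to saline had a log2 fold change of -0.79 (adjusted p = 0.0541, edgeR).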

How the results depend on the processing

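The number of members lower in saline than in young was 9, and it was 9 or 10 under all 9 other settings and 8 to 10 with each of 21 libraries left out. In MCC950 against young it was 10, with 9 or 10 under the other settings and 9 to 10 with a library left out. In MCC950 against saline 0 members were lower, and the number was 3 with DESeq2 (5.59% of all genes lower), 3 with voom with quality weights (11.8%), 2 with DESeq2 size factors (5.7%), 2 with genes kept only at 10 or more counts in all libraries (6.14%), 1 with libraries thinned to equal depth (3.72%; 5804891 counts outside the mitochondrial genes) and 0 to 2 with a library left out. No log2 fold change that passed the test changed sign. *Tagln* passed in saline against young with DESeq2 size factors, DESeq2, voom, only the 2 groups compared, the replicate block and thinned counts. *Myh11* passed in MCC950 against saline under 4 settings (adjusted p from 0.00805 to 0.0429) and without young replicates 2 to 6, saline replicates 1 and 7 or MCC950 replicates 1, 2 and 6 (0.0201 to 0.0436). *Rgs5* passed under 5 settings (0.00397 to 0.0495) and without young replicates 2, 3, 4 and 6, saline replicate 1 or MCC950 replicates 2 and 6 (0.0113 to 0.0499). *Pdgfra* lost its call in MCC950 against young without the filter on low counts (adjusted p = 0.0597) and with only the 2 groups compared (0.0631). The cause of these shifts was not tested. Depth limits *Rgs5* most, with as few as 33 counts in a library.

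Replicate numbers were not taken as pairs, since libraries of the same number had deviations with correlations from -0.061 to 0.347 (6 pairs, saline and young), -0.144 to 0.335 (7 pairs, MCC950 and saline) and -0.013 to 0.401 (6 pairs, MCC950 and young). With the replicate block, 10 members were lower in saline and 10 in MCC950 than in young. Against saline, 0 were lower and 1 higher with MCC950 (*Itga8*, log2 fold change 0.53, adjusted p = 0.0496), where 10.5% of all genes were higher.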
